A study of Homo sapiens with 12 samples.

Results

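The genes described here are 33 genes of fatty acid oxidation, ketone body metabolism and the peroxisome, with the regulators and uptake proteins that serve them. They were taken by symbol from the deposited tables, where each symbol occurred, out of 58735 genes in all. The study measured poly-A RNA in Huh7 and HLF, established human lines from hepatocellular carcinoma, each grown in 2D and in a pair of 3D cultures in Matrigel, a basement membrane gel. In Mix-Embed culture, cells were mixed into the gel (20000 Huh7 or 10000 HLF cells per well), and in Inject-Embed culture a suspension was placed with a pipette inside a gel that had already set (4000 Huh7 or 2000 HLF cells per well). All 6 groups were kept in DMEM with serum, carried no added drug or genetic change in the labels, and held 2 libraries each, called biological replicates by the submitters without saying what separated them. The 2D cells were harvested on day 2, near confluence, and the 3D cells on days 6 to 8, so that culture format and time in culture cannot be told apart. The 3D cultures also differed from each other in the number of cells seeded. Each line stands for 1 tumour, and no normal hepatocytes are among the groups.

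Fatty acids enter the cell, are bound by carrier proteins and are joined to coenzyme A before they can be burned. Long chains reach the mitochondrial matrix as carnitine esters, where acyl-CoA dehydrogenases start a spiral of repeated shortening and pass electrons through the electron transfer flavoprotein. Peroxisomes run a parallel spiral on very long and branched chains and on bile acid precursors. In the liver the acetyl-CoA that results can be turned into ketone bodies for other organs, and the nuclear receptor PPARA switches on many of these genes in fasting.

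PPARA with its partner RXR is known to bind direct repeats of the hexamer AGGTCA with 1 base between the repeats. The 250 bases before the RefSeq gene start were therefore searched on both strands for this hexamer, allowing overlap with any other motif. RefSeq promoter windows of build GRCh38.p14 matched 26 of the 33 genes (39 windows, since some genes have several starts). The direct repeat, counted as an exact match only, was found in 0 of these 39 windows, against 6 of 35116 (0.0171%). At so low a rate, 0 of 39 cannot tell these genes from others. The hexamer was found in 3 of the 39 windows (7.69%), against 12.1% of all 35116 windows. The 3 genes were FABP1, ACSL5 and ACAD10, shown because the results below describe them in detail. All 3 were called in at least 1 comparison of a 3D culture with 2D, as were 24 of the 32 genes tested (75%), against 52.6% of all genes. Their sites are shown with the hexamer in capitals, 5′ to 3′ along the strand of the gene, where TGACCT is the hexamer read on the opposite strand.
FABP1, chr2:88128113-88128142, minus strand, 68 bases before the start: atcaacagctgcTGACCTctggccgctatt
ACSL5, chr10:112375033-112375062, plus strand, 223 bases before the start: ttttactggaggAGGTCAataaaaaaaaaa
ACAD10, chr12:111685974-111686003, plus strand, 67 bases before the start: ggccgccgtcgcTGACCTgcggtttacgca
Distances are to the RefSeq start of the window. The ACSL5 site lies inside the gene span of the deposited tables, which begins at chr10:112374018, so it is upstream of that RefSeq start only. The FABP1 span of those tables begins, on the minus strand, at chr2:88128116. The FABP1 hexamer lies before that start too, but nearer to it, and the end of the printed stretch lies inside the span. A match of these letters is a description of the sequence and not evidence of binding.

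Library totals ran from 12325877 to 16041906 counts, and 97.07% to 97.66% of counts lay in protein-coding genes. Levels within a gene are given in CPM, the count scaled to the TMM-adjusted total of the tested genes, on which scale 3 counts are worth 0.178 to 0.255 CPM depending on the library. Levels between genes are given in the deposited FPKM, which also divides by gene length. Of the 9 hepatocyte markers examined (among them ALB, AFP, APOB, TF, SERPINA1 and HNF4A), all were detected in Huh7, with summed levels of 34550 to 46159 CPM. In HLF their sum was 2.7 to 16.6 CPM, with APOB at 0 in each culture, so the defining hepatocyte markers were at or near 0 in that line. The share of mitochondrial ribosomal RNA was 0.29% to 0.31% in the 2D libraries and 0.47% to 0.60% in the 3D libraries of both lines, and its part in the differences below was not tested. In bulk libraries such as these, fewer cells of a type and less RNA per cell cannot be told apart.

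The order of levels differed between the lines. FABP1 led in Huh7 2D at 176 ± 22.2 FPKM (SD, n = 2), followed by ECHS1 at 95.02 ± 4.95 and ETFA at 48.1 ± 0.54. In HLF 2D the order was ECHS1 at 106 FPKM, ACADVL at 63.4 and HADHA at 48.8, and FABP1 was last with no counts. In Huh7 Inject-Embed, FABP1 (90.7 FPKM) stood below ECHS1 (108 FPKM), and in HLF Mix-Embed ACADVL (94.8 FPKM) and ECHS1 (93.9 FPKM) were nearly level. The heat map of all 33 genes shows strong contrasts between the lines at single genes of several roles, such as FABP1, ACSL1, CPT1A, ACOX2 and EHHADH.

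**Figure D1:**
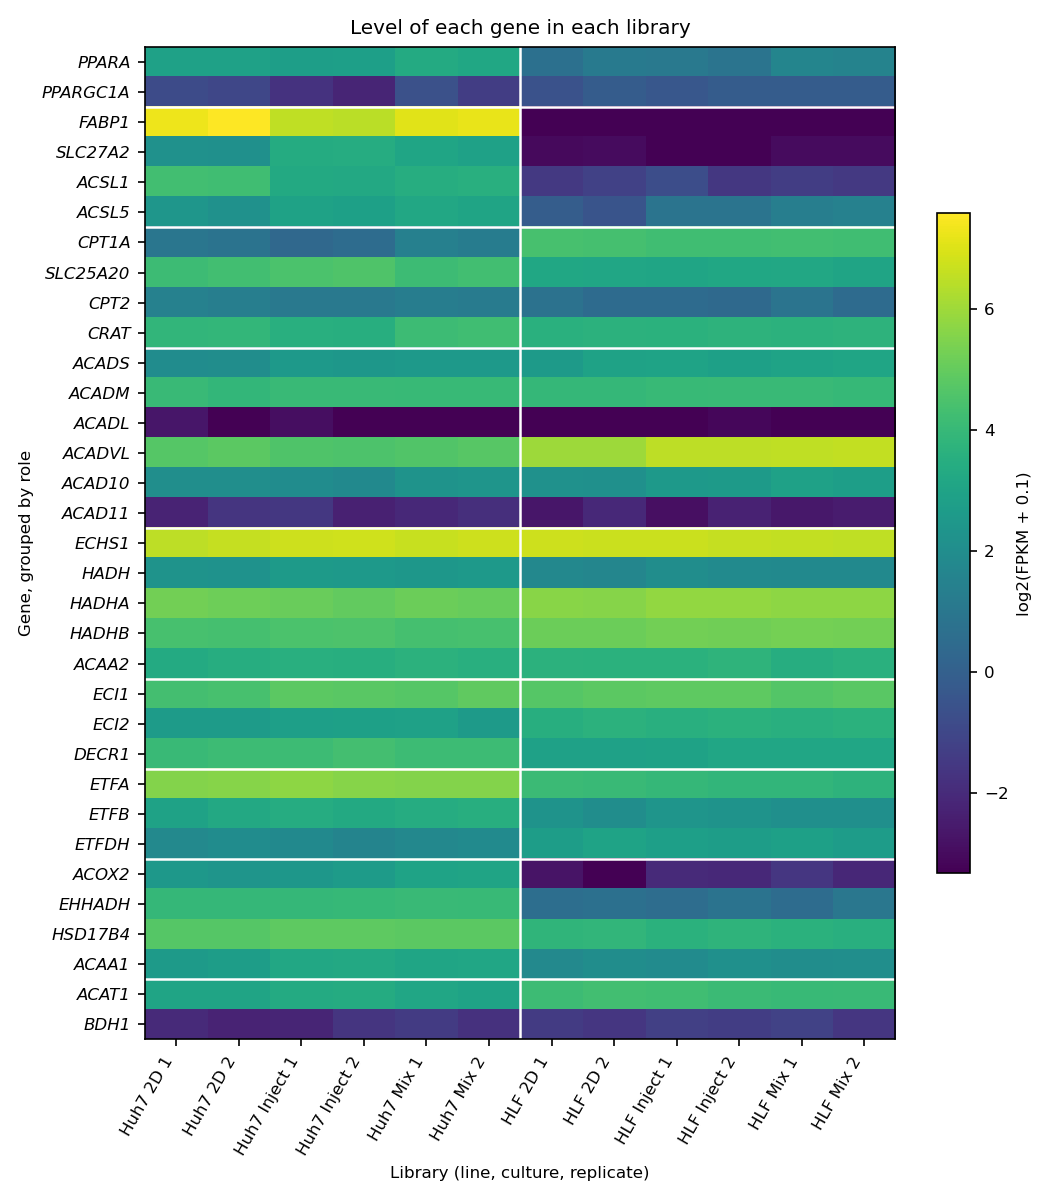
Heat map of log2(FPKM + 0.1) for the 33 genes (rows, grouped by role) in the 12 libraries (columns, Huh7 left and HLF right of the white line). FABP1, SLC27A2, ACSL1, ACOX2 and EHHADH are brighter in Huh7 than in HLF, CPT1A and ACADVL are brighter in HLF, and ACADL is dark throughout.

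A total of 32 genes passed the filter on low counts and were tested with edgeR's quasi-likelihood test, with Benjamini-Hochberg adjustment over 19342 genes at 0.05. ACADL, the long-chain acyl-CoA dehydrogenase, did not pass: it had 4 and 0 counts in the Huh7 2D libraries, 2 and 0 in Huh7 Inject-Embed, 0 and 1 in HLF Inject-Embed, and 0 in the other 6 libraries. In Huh7, 10 of the 32 were higher and 8 lower in Inject-Embed than in 2D (29.9% of all genes tested were called, 13.2% higher and 16.7% lower). In Huh7 Mix-Embed, 13 were higher and 2 lower than in 2D (21.7% of all genes were called, 11.2% higher and 10.6% lower). Their median log2 fold changes in these comparisons were 0.09 and 0.14, against -0.01 and 0.00 over all genes tested. Both comparisons share the Huh7 2D libraries. With library totals alone as the scaling, 50.7% of all genes called in Inject-Embed were higher (44.2% with TMM).

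In HLF, 6 of the 32 were higher and 3 lower in Inject-Embed than in 2D (17.9% of all genes called, 9.09% higher and 8.86% lower), and 5 were higher and 5 lower in Mix-Embed (29% called, 14.4% higher and 14.6% lower). The medians were 0.03 and 0.02, against 0.00 over all genes in both, and the share called among the 32 genes in Mix-Embed, 31.2%, was near that of all genes. The balance of calls in HLF depended on the scaling: with library totals alone, 63.3% of all genes called in Inject-Embed were higher (50.6% with TMM) and 62.4% in Mix-Embed (49.8% with TMM). The genes described here were then 6 higher and 1 lower in HLF Inject-Embed, and 6 higher and 4 lower in Mix-Embed. Between the 3D cultures, Huh7 had 3 genes higher and 9 lower in Inject-Embed than in Mix-Embed (22.9% of all genes called, 9.55% higher and 13.4% lower). HLF had 0 higher and 3 lower (8.27% called, 3.56% higher and 4.71% lower). With library totals alone, 52.9% of all genes called between the Huh7 3D cultures were higher (41.7% with TMM), and the counts here were 3 and 8. Of the calls against 2D, those that held without any 1 library of the compared groups numbered 11 of 18 in Huh7 Inject-Embed, 10 of 15 in Huh7 Mix-Embed, 3 of 9 in HLF Inject-Embed and 7 of 10 in HLF Mix-Embed. Between the 3D cultures, 5 of 12 held in Huh7 and 1 of 3 in HLF.

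**Figure D2:**
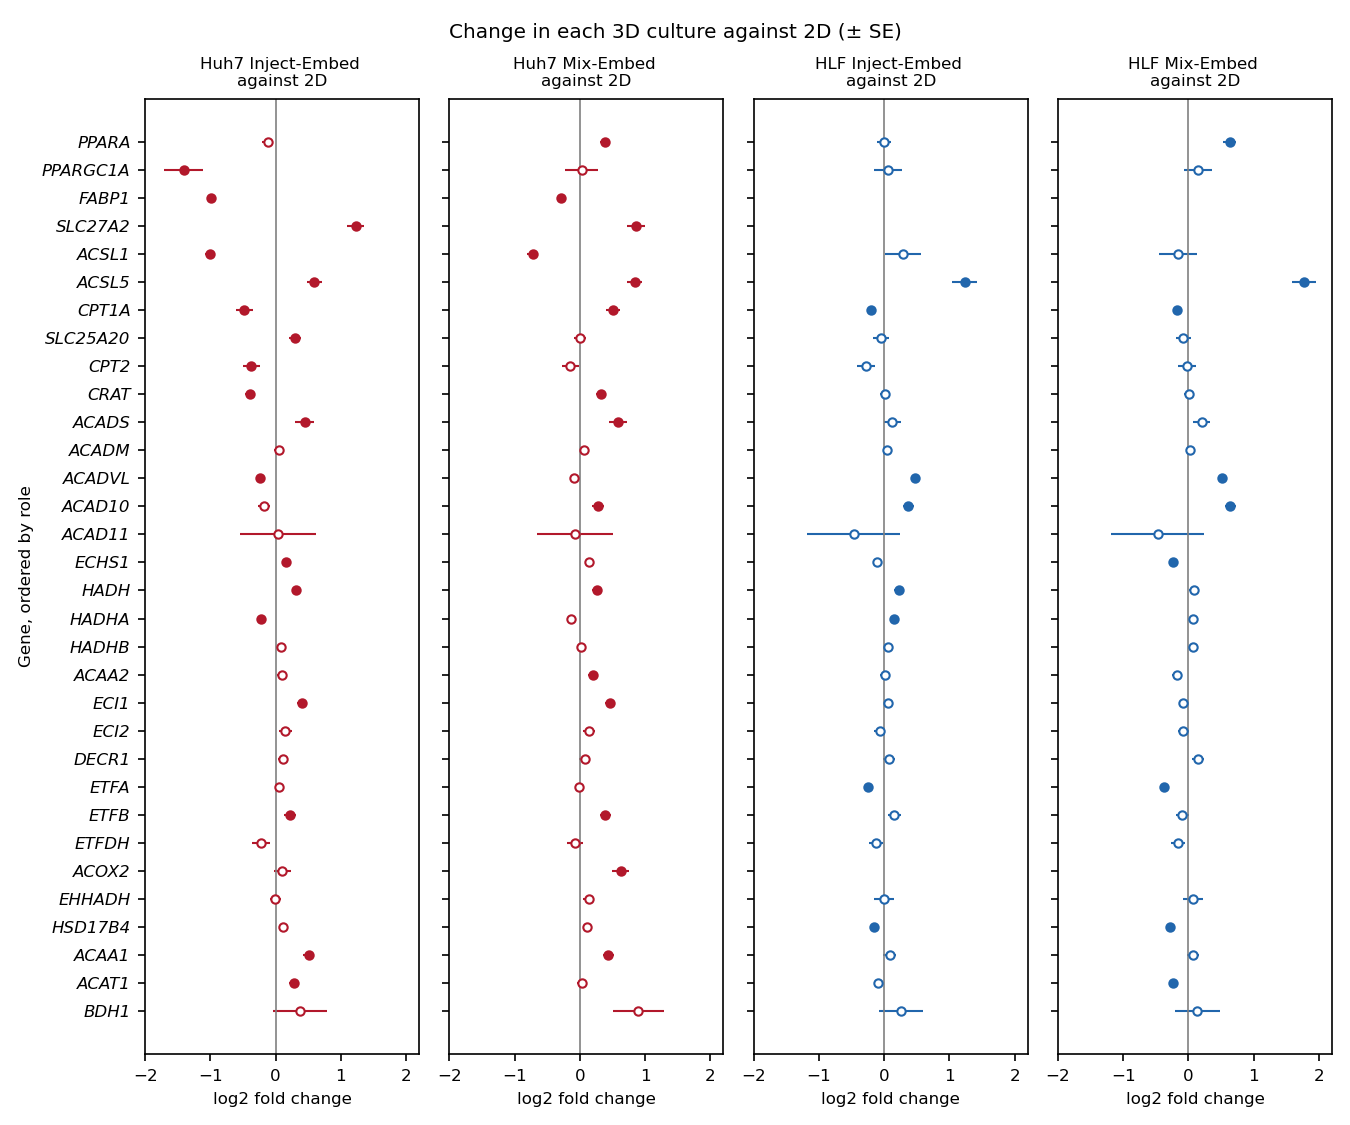
Log2 fold change ± SE of each tested gene in each 3D culture against 2D (Huh7 red, HLF blue), where filled points had adjusted p under 0.05 and open points did not. FABP1, SLC27A2 and ACOX2 are left out of the HLF panels because of few or no counts. ACSL5 is filled to the right of 0 in all 4 panels, while ACSL1 and FABP1 are filled to the left in the Huh7 panels.

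The lines differed at most of the genes in every culture, as they did at most of all genes tested. The shares called among the 32 genes were 84.4% in 2D, 84.4% in Inject-Embed and 90.6% in Mix-Embed. Huh7 was higher than HLF at 17 of the 32 genes and lower at 10 in 2D, where 77.2% of all genes tested were called (38.1% higher and 39.2% lower). In Inject-Embed the counts were also 17 and 10 (77.1% called, 37.6% higher and 39.5% lower), and in Mix-Embed 20 and 9 (76.9% called, 37.9% higher and 39.1% lower). The median log2 fold change of Huh7 over HLF was 0.56, 0.54 and 0.76 in 2D, Inject-Embed and Mix-Embed, against -0.02, -0.03 and -0.03 over all genes. In all 3 cultures 16 genes were higher in Huh7, among them PPARA, the 4 uptake and activation genes and the 4 genes of the peroxisomal spiral. PPARGC1A, CPT1A, ACADVL, HADHA, HADHB, ECI2, ETFDH and ACAT1 were lower in Huh7 in all 3, which makes 8 genes. Of all genes tested, 30.4% were called higher and 31.9% lower in Huh7 in all 3 cultures.

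**Figure D3:**
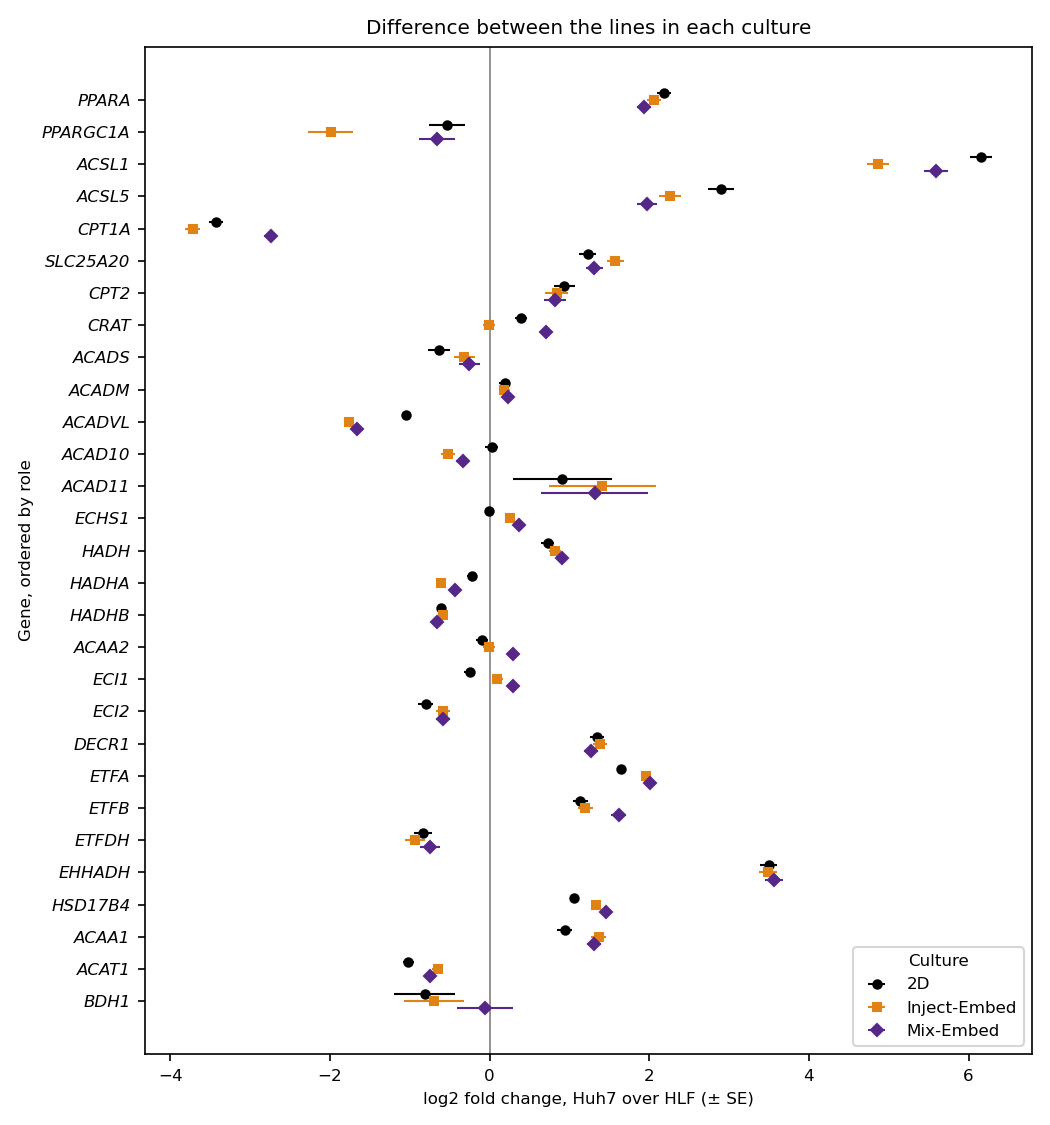
Log2 fold change of Huh7 over HLF ± SE in 2D (black circles), Inject-Embed (orange squares) and Mix-Embed (purple diamonds), without ACADL, FABP1, SLC27A2 and ACOX2, which had few or no counts in HLF. ACSL1 lies between 4.86 and 6.15, EHHADH near 3.5 in each culture, and CPT1A between -3.72 and -2.74.

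The regulators were PPARA and PPARGC1A. PPARA (ENSG00000186951, chr22:46150521-46243756, GRCh38) is the fatty acid sensing receptor that drives many of the other genes. Its levels in Huh7 were 104 and 106 CPM in 2D, 94.3 and 98.9 in Inject-Embed and 146 and 129 in Mix-Embed, and in HLF 19.8 and 26.6, 25.2 and 21.2, and 37.0 and 35.0 CPM in the same order. Both Mix-Embed groups lay above every other library of their line, and the lines did not overlap. PPARA rose in Mix-Embed against 2D by a log2 fold change of 0.39 ± 0.08 (SE; adjusted p = 0.0001319) in Huh7 and 0.63 ± 0.10 (adjusted p = 1.878e-06) in HLF. Against Mix-Embed it was lower in Inject-Embed by -0.51 in Huh7 and -0.64 in HLF, and against 2D the Inject-Embed values were -0.12 (adjusted p over 0.05) in Huh7 and 0.00 in HLF. In 2D it was 4.53-fold higher in Huh7 than in HLF by mean CPM. The Huh7 Mix-Embed call was lost under limma on log2(FPKM + 1) (0.33, adjusted p = 0.0528) and on log2(FPKM + 0.1) (0.37, adjusted p = 0.11).

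PPARGC1A (chr4:23755041-23904089) encodes PGC-1α, a coactivator of mitochondrial genes. It was low in all libraries. In Huh7 it was 5.33 and 4.64 CPM in 2D, 2.35 and 1.36 in Inject-Embed and 6.62 and 3.42 in Mix-Embed, and in HLF 5.95 and 8.51, 6.94 and 8.03, and 8.06 and 7.96 CPM. The Huh7 Inject-Embed libraries lay below all others, while Huh7 2D and Mix-Embed overlapped. It fell in Huh7 Inject-Embed by 1.41 ± 0.30 on the log2 scale against 2D (adjusted p = 0.0002439) and was at -1.43 against Mix-Embed (adjusted p = 0.0003239). The latter was -0.87 with adjusted p = 0.103 without Huh7 Mix-Embed replicate 1. Under limma on log2(FPKM + 1) both were lost (-0.30, adjusted p = 0.0609, and -0.29, adjusted p = 0.0801). It was lower in Huh7 than in HLF in 2D (-0.53 ± 0.23, adjusted p = 0.03318), a call lost without Huh7 2D replicate 2 (-0.44, adjusted p = 0.14) or HLF 2D replicate 2 (-0.29, adjusted p = 0.359), with DESeq2 (adjusted p = 0.11) and under limma with either pseudocount (adjusted p = 0.0589 and 0.0995). In Mix-Embed the value was -0.66, lost without Huh7 Mix-Embed replicate 2 (-0.28, adjusted p = 0.314) and -1.22 without Huh7 Mix-Embed replicate 1.

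All 4 genes of uptake and activation were called in both Huh7 3D cultures, 2 upward and 2 downward, where 29.9% of all genes were called in Inject-Embed and 21.7% in Mix-Embed. FABP1 (ENSG00000163586, chr2:88122982-88128116) encodes the liver fatty acid-binding protein. It had 424 and 509.6 CPM in Huh7 2D, 239 and 230.2 in Inject-Embed and 368 and 399 in Mix-Embed, and no count in any of the 6 HLF libraries. All 3 Huh7 groups were separate from each other. FABP1 fell by 0.99 ± 0.06 on the log2 scale in Inject-Embed against 2D (adjusted p = 9.075e-17) and -0.71 ± 0.06 against Mix-Embed. In Mix-Embed it was -0.28 ± 0.06 against 2D (adjusted p = 0.0003267), a call lost without Huh7 2D replicate 2 (-0.14, adjusted p = 0.0804), with DESeq2 (adjusted p = 0.0621) and under limma on log2(FPKM + 0.1) (adjusted p = 0.078). Against a floor of 3 counts over the HLF group, FABP1 was at least 4980-fold higher in Huh7 in 2D, at least 2460-fold in Inject-Embed and at least 4020-fold in Mix-Embed. Its promoter site is the first of the sequences above. In the same Huh7 libraries the summed hepatocyte markers were 44155 to 46159 CPM in 2D, 34550 to 36019 in Inject-Embed and 42530 to 43166 in Mix-Embed. AFP carried much of this sum (25044, 19479 and 23242 CPM by group mean). Of the 9 markers, 2 were higher and 5 lower in Inject-Embed than in 2D. The higher ones were ALB (357 CPM in 2D and 1169 in Inject-Embed) and HNF4A (366 and 498). The part of the hepatocyte markers in the changes of FABP1 and the other Huh7 genes was not tested.

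SLC27A2 (chr15:50182196-50236395) encodes a fatty acid transport protein with very-long-chain acyl-CoA synthetase activity. Its level in Huh7 was 13.5 and 13.0 CPM in 2D, 30.3 and 31.5 in Inject-Embed and 25.5 and 22.3 in Mix-Embed, with 2, 0 and 2 counts over the HLF groups in the same order. The Huh7 groups did not overlap. SLC27A2 rose by 1.23 ± 0.14 in Inject-Embed (adjusted p = 1.194e-09) and by 0.85 ± 0.14 in Mix-Embed (adjusted p = 6.359e-06), opposite in direction to FABP1 in the same libraries. Inject-Embed was 0.37 above Mix-Embed (adjusted p = 0.03198), which was lost without Huh7 Inject-Embed replicate 1 (0.40, adjusted p = 0.0975), Inject-Embed replicate 2 (0.35, adjusted p = 0.156) or Mix-Embed replicate 2 (0.29, adjusted p = 0.274), with no filter (adjusted p = 0.0992), with DESeq2 (adjusted p = 0.0939) and under limma on log2(FPKM + 0.1) (adjusted p = 0.0767). The ratio of Huh7 to HLF was 212 in 2D (95% counting interval 58.2 to 1750), at least 323 in Inject-Embed and 377 in Mix-Embed (104 to 3120), where intervals cover counting error only.

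The long-chain acyl-CoA synthetases ACSL1 and ACSL5 moved in opposite directions in Huh7. ACSL1 (chr4:184755595-184826818) was at 129.6 and 125 CPM in Huh7 2D, 64.2 and 62.7 in Inject-Embed and 75.1 and 79.1 in Mix-Embed, and at 1.44 to 2.92 CPM in HLF. The 2D libraries lay above all 3D libraries of Huh7. ACSL1 fell by 1.01 ± 0.08 in Inject-Embed (adjusted p = 1.299e-13) and by 0.73 ± 0.08 in Mix-Embed (adjusted p = 1.408e-09) on the log2 scale, the latter not passing under limma on log2(FPKM + 0.1) (adjusted p = 0.0574). Inject-Embed against Mix-Embed was -0.28 (adjusted p = 0.01161), lost without Huh7 Inject-Embed replicate 1 (-0.30, adjusted p = 0.0518), Inject-Embed replicate 2 (-0.26, adjusted p = 0.0909) or Mix-Embed replicate 2 (-0.24, adjusted p = 0.142), and under limma with either pseudocount (adjusted p = 0.133 and 0.536). In HLF the values were 0.28 and -0.16, neither passing the threshold, and in 2D Huh7 was 71.5-fold higher by mean CPM.

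ACSL5 (ENSG00000197142, chr10:112374018-112428380) was the 1 gene of the 32 that was higher in all 4 comparisons of a 3D culture with 2D, which share the 2D libraries within a line. Of all genes tested, 0.605% were. It had 23.7 and 20.3 CPM in Huh7 2D, 34.2 and 32.1 in Inject-Embed and 41.6 and 37.0 in Mix-Embed, and 3.35 and 2.52, 6.87 and 6.96, and 9.63 and 10.4 CPM in HLF. The groups of each line did not overlap, and in both the order was 2D, Inject-Embed, Mix-Embed. The log2 fold changes against 2D were 0.59 ± 0.12 and 0.84 ± 0.12 in Huh7 and 1.23 ± 0.19 and 1.77 ± 0.18 in HLF. Inject-Embed against Mix-Embed was -0.54 in HLF (adjusted p = 0.02357), which was lost without HLF Inject-Embed replicate 1 (-0.53, adjusted p = 0.13), Inject-Embed replicate 2 (-0.55, adjusted p = 0.119) or Mix-Embed replicate 2 (-0.48, adjusted p = 0.193), and under limma with either pseudocount (adjusted p = 0.0556 and 0.0747). In Huh7 it was -0.25, which did not pass. ACSL5 shares 3953 bases with ZDHHC6 on the other strand (mean count of ACSL5 266, of ZDHHC6 751), and without a stated strand setting reads of the shared part cannot be told apart.

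**Figure D4:**
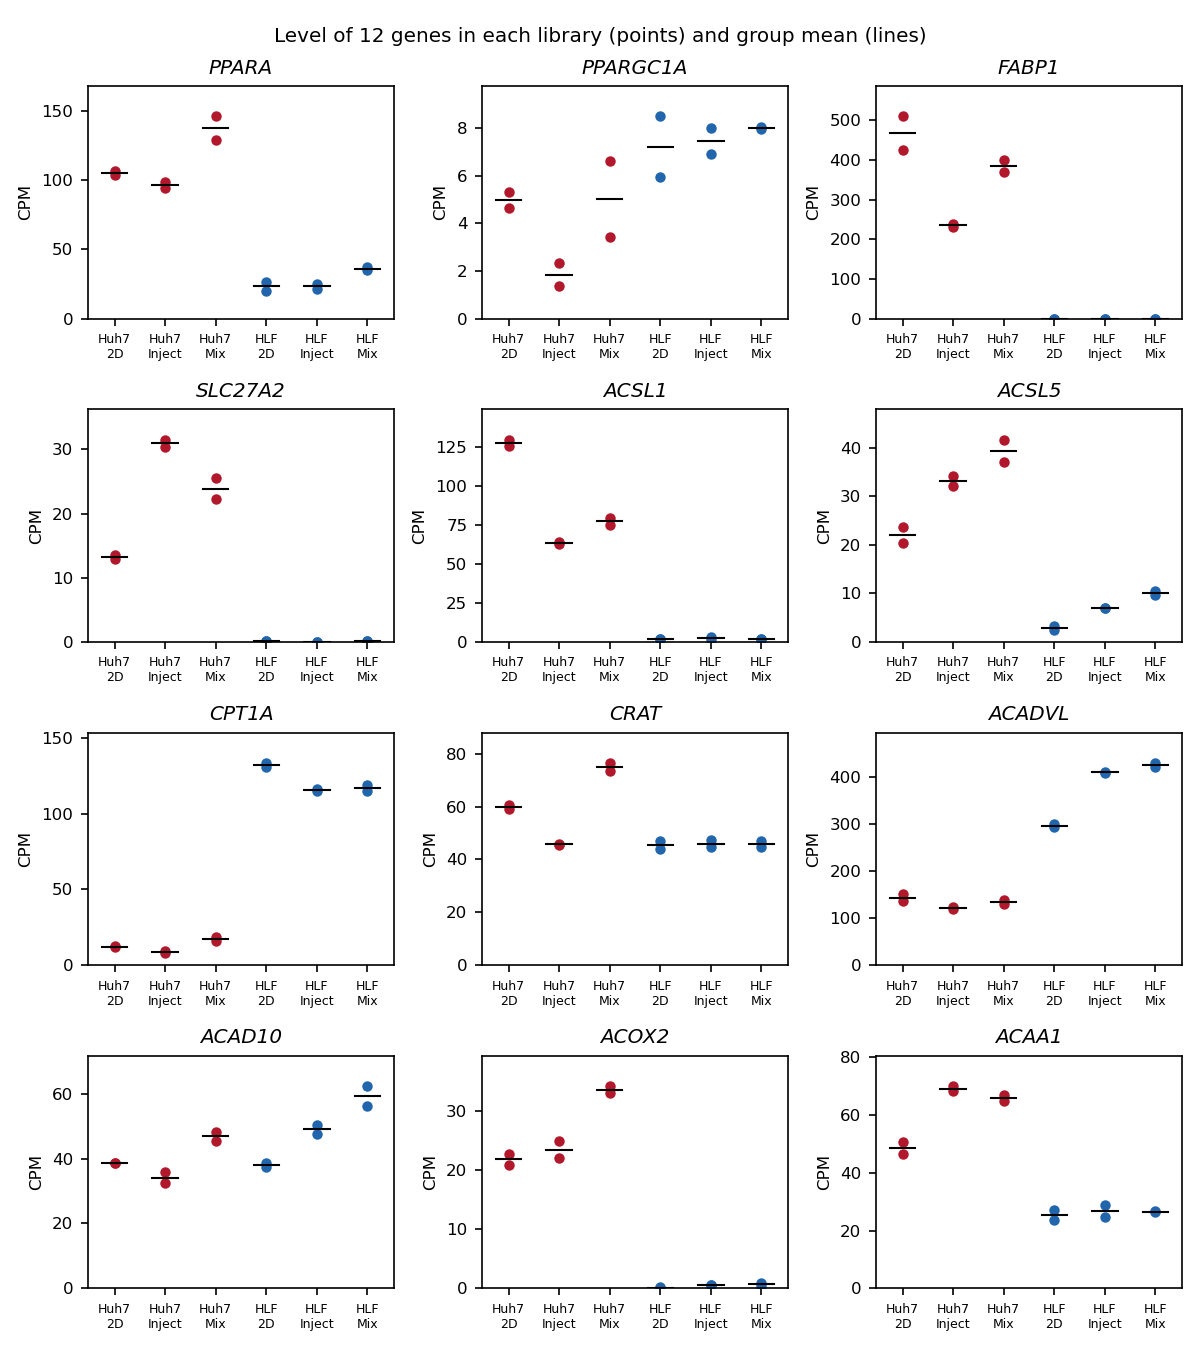
CPM in each library (points) with the group mean (line) for 12 genes, Huh7 in red and HLF in blue, each axis starting at 0. FABP1, PPARGC1A and CRAT are low in Huh7 Inject-Embed, SLC27A2 and ACAA1 are raised in both Huh7 3D cultures, and ACADVL is raised in both HLF 3D cultures.

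All 4 carnitine shuttle genes were called in Huh7 Inject-Embed (1 higher and 3 lower than 2D, with 13.2% of all genes higher and 16.7% lower), but the calls for CPT1A, SLC25A20 and CPT2 were each lost without some 1 library. The first enzyme stood far higher in HLF. CPT1A (ENSG00000110090, chr11:68754620-68844410) encodes the liver form of carnitine palmitoyltransferase 1, the controlled step of entry into mitochondria. Huh7 had 12.8 and 11.7 CPM in 2D, 8.25 and 9.35 in Inject-Embed and 18.6 and 16.2 in Mix-Embed, and HLF 133 and 131, 116 and 115, and 119 and 115 CPM. The Huh7 groups were separate, with 2D between the 3D cultures, and every HLF library was above every Huh7 library. CPT1A fell by 0.48 ± 0.13 on the log2 scale in Huh7 Inject-Embed (adjusted p = 0.0029), lost without Huh7 Inject-Embed replicate 1 (-0.39, adjusted p = 0.0822), and rose by 0.51 ± 0.11 in Mix-Embed (adjusted p = 0.0004301). Inject-Embed against Mix-Embed was -0.99 ± 0.12 (adjusted p = 1.678e-08). In HLF it was -0.20 ± 0.06 in Inject-Embed and -0.18 ± 0.06 in Mix-Embed against 2D (adjusted p = 0.02459 and 0.02798). Both HLF calls were lost on leaving out any 1 of the 4 compared libraries, with values of -0.21 to -0.18 (adjusted p 0.102 to 0.181) and -0.19 to -0.14 (adjusted p 0.0831 to 0.223). They were also lost with library totals alone, no filter, DESeq2 and limma with either pseudocount (adjusted p 0.0517 to 0.312 and 0.0524 to 0.377). Huh7 over HLF was -3.43 ± 0.08 in 2D, -3.72 ± 0.09 in Inject-Embed and -2.74 ± 0.08 in Mix-Embed.

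CRAT (chr9:129094810-129111189), carnitine acetyltransferase, which handles short chains, was lowest in Inject-Embed and highest in Mix-Embed of Huh7, the order also seen for CPT1A. It had 59.2 and 60.5 CPM in 2D, 46.0 and 45.3 in Inject-Embed and 73.4 and 76.6 in Mix-Embed of Huh7, and 44.04 to 47.2 CPM in the 6 HLF libraries. The Huh7 groups did not overlap, while the HLF groups did. The changes against 2D in Huh7 were -0.39 ± 0.08 (adjusted p = 9.411e-05) and 0.32 ± 0.07 (adjusted p = 0.0007765), and the largest value in HLF was 0.01. CRAT shares 240 bases with PTPA on the other strand.

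The other 2 shuttle genes moved less. SLC25A20, the carnitine-acylcarnitine carrier of the inner membrane, had 37.1 to 41.8 CPM in Huh7 2D and Mix-Embed and 47.2 and 49.8 in Inject-Embed. It rose by 0.30 ± 0.10 against 2D (adjusted p = 0.01621), lost without Huh7 2D replicate 1 (0.22, adjusted p = 0.211) or Inject-Embed replicate 2 (0.27, adjusted p = 0.115). Against Mix-Embed the value was also 0.30 (adjusted p = 0.02258), lost without Inject-Embed replicate 1 (0.34, adjusted p = 0.0502), Inject-Embed replicate 2 (0.27, adjusted p = 0.148) or Mix-Embed replicate 1 (0.23, adjusted p = 0.252), and with no filter (adjusted p = 0.0548). CPT2, which turns the carnitine esters back into acyl-CoA in the matrix, was -0.37 ± 0.13 in Huh7 Inject-Embed against 2D (adjusted p = 0.02119). That call was lost without Huh7 2D replicate 1 (-0.32, adjusted p = 0.137), Inject-Embed replicate 1 (-0.37, adjusted p = 0.0945) or Inject-Embed replicate 2 (-0.37, adjusted p = 0.0849), with DESeq2 (adjusted p = 0.0545) and under limma with either pseudocount (adjusted p = 0.132 and 0.182). In 2D, SLC25A20 (1.23) and CPT2 (0.93) were higher in Huh7 by these log2 fold changes, in contrast with CPT1A.

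Among the acyl-CoA dehydrogenases, which open the spiral, ACADVL stood out in HLF. ACADVL (ENSG00000072778, chr17:7217125-7225273) acts on very long chains at the inner membrane. HLF had 301 and 293 CPM in 2D, 412 and 409 in Inject-Embed and 421 and 431 in Mix-Embed, and Huh7 136 and 151, 123 and 119, and 129.9 and 139 CPM. All HLF libraries lay above all Huh7 libraries, and HLF 2D lay below both HLF 3D cultures. In HLF it rose by 0.47 ± 0.05 in Inject-Embed (adjusted p = 4.048e-10) and 0.52 ± 0.05 in Mix-Embed (adjusted p = 8.973e-12). In Huh7 it fell by 0.24 ± 0.06 on the log2 scale in Inject-Embed (adjusted p = 0.000496), and Mix-Embed at -0.09 did not pass. Inject-Embed against Mix-Embed in Huh7 was -0.15 (adjusted p = 0.04245), lost without Inject-Embed replicate 1 (-0.17, adjusted p = 0.0943), Inject-Embed replicate 2 (-0.13, adjusted p = 0.24) or Mix-Embed replicate 2 (-0.10, adjusted p = 0.419), and under 6 other settings (adjusted p 0.0681 to 0.198). The ratio of ACADVL to ACADM in FPKM was 1.40 to 1.96 in the Huh7 libraries and 4.08 to 6.09 in the HLF libraries. ACADVL shares 2717 bases with DLG4 on the other strand, whose mean count of 422 compares with 3896 for ACADVL.

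ACADM, the medium-chain enzyme, passed the threshold in no comparison within a line and stayed between 69.6 and 85.0 CPM in all 12 libraries. It was called higher in Huh7 by 0.19, 0.18 and 0.23 in 2D, Inject-Embed and Mix-Embed. Those calls were lost in 2D without Huh7 2D replicate 1 (0.10, adjusted p = 0.27), HLF 2D replicate 1 (0.18, adjusted p = 0.0588) or HLF 2D replicate 2 (0.15, adjusted p = 0.117), in Inject-Embed without Huh7 replicate 2 (0.17, adjusted p = 0.0661) or HLF replicate 1 (0.15, adjusted p = 0.116), and in Mix-Embed without HLF replicate 2 (0.13, adjusted p = 0.168). With library totals alone as the scaling, and under limma with either pseudocount, they were lost in all 3 cultures (adjusted p 0.674 to 0.996), and in Inject-Embed also with no filter (adjusted p = 0.0791).

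ACADS, the short-chain enzyme (chr12:120725735-120740008), had 11.1 and 11.2 CPM in Huh7 2D, 15.6 and 14.8 in Inject-Embed and 16.9 and 16.6 in Mix-Embed, and 15.3 to 20.5 CPM in HLF. The 3D libraries of Huh7 lay above 2D, and the HLF groups overlapped. ACADS rose by 0.45 ± 0.14 (adjusted p = 0.01477) and 0.58 ± 0.14 (adjusted p = 0.001591) in Huh7 Inject-Embed and Mix-Embed, the first lost without Huh7 2D replicate 1 (0.44, adjusted p = 0.0674) or Inject-Embed replicate 1 (0.41, adjusted p = 0.102). It was lower in Huh7 than in HLF in 2D (-0.64) and in Inject-Embed (-0.32), the latter lost without Huh7 Inject-Embed replicate 1 (-0.36, adjusted p = 0.0565), replicate 2 (-0.28, adjusted p = 0.125) or HLF Inject-Embed replicate 1 (-0.26, adjusted p = 0.154), and with DESeq2 (adjusted p = 0.0822).

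ACAD10 (ENSG00000111271, chr12:111686056-111757107), a less studied member of the dehydrogenase family, had 38.5 and 38.8 CPM in Huh7 2D, 35.8 and 32.5 in Inject-Embed and 45.5 and 48.2 in Mix-Embed. In HLF it had 38.6 and 37.4, 47.5 and 50.5, and 62.4 and 56.3 CPM. Mix-Embed was highest in both lines, with no overlap, while Inject-Embed was below 2D in Huh7 and above it in HLF. The changes in HLF were 0.37 ± 0.08 (adjusted p = 0.0009823) and 0.64 ± 0.08 (adjusted p = 2.492e-08). In Huh7 Mix-Embed it rose by 0.28 ± 0.09 (adjusted p = 0.01487), lost without Huh7 2D replicate 1 (0.27, adjusted p = 0.0751), 2D replicate 2 (0.28, adjusted p = 0.0519) or Mix-Embed replicate 2 (0.23, adjusted p = 0.16), and under limma with either pseudocount (adjusted p = 0.0571 and 0.0592). The Inject-Embed value of -0.18 did not pass. Inject-Embed against Mix-Embed was -0.45 in Huh7 (adjusted p = 0.0001108) and -0.27 in HLF (adjusted p = 0.02351), the latter lost without HLF Inject-Embed replicate 1 (-0.24, adjusted p = 0.233), Inject-Embed replicate 2 (-0.33, adjusted p = 0.066) or Mix-Embed replicate 1 (-0.21, adjusted p = 0.258), with DESeq2 (adjusted p = 0.0523) and under limma with either pseudocount (adjusted p = 0.0703 and 0.0949). ACAD11 was near the detection floor at 0.195 to 1.44 CPM and passed in no comparison.

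In the later steps of the mitochondrial spiral, called changes against 2D were of 0.32 or less on the log2 scale. ECHS1, the short-chain enoyl-CoA hydratase, was between 137 and 186 CPM in all 12 libraries. It was 0.15 ± 0.05 higher in Huh7 Inject-Embed than in 2D (adjusted p = 0.02921), lost without Huh7 2D replicate 1 (0.10, adjusted p = 0.293), Inject-Embed replicate 1 (0.17, adjusted p = 0.0623) or Inject-Embed replicate 2 (0.14, adjusted p = 0.14), and with no filter (adjusted p = 0.0931). It fell by 0.24 ± 0.05 on the log2 scale in HLF Mix-Embed (adjusted p = 0.0006137). HADH, the short-chain hydroxyacyl-CoA dehydrogenase, rose by 0.32 ± 0.07 in Huh7 Inject-Embed (adjusted p = 0.0007079) and 0.27 ± 0.07 in Mix-Embed, the latter lost without Huh7 Mix-Embed replicate 2 (0.19, adjusted p = 0.176) and under limma with either pseudocount (adjusted p = 0.0519 and 0.0625). In HLF Inject-Embed it was 0.23 (adjusted p = 0.03969), lost without HLF 2D replicate 1 (0.27, adjusted p = 0.0819), 2D replicate 2 (0.20, adjusted p = 0.25) or Inject-Embed replicate 1 (0.17, adjusted p = 0.33), and with no filter, DESeq2 or limma (adjusted p 0.0599 to 0.0869). ACAA2, the mitochondrial thiolase, was 0.20 higher in Huh7 Mix-Embed (adjusted p = 0.04799), lost without Huh7 2D replicate 1 (0.15, adjusted p = 0.323) or Mix-Embed replicate 1 (0.14, adjusted p = 0.411), and under 7 other settings (adjusted p 0.0632 to 0.124). Between the lines ACAA2 was called in Mix-Embed alone of the 3 cultures (0.29 higher in Huh7), which was lost without HLF Mix-Embed replicate 1 (0.18, adjusted p = 0.084), and with library totals alone or limma (0.06, adjusted p 0.446 to 0.464).

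HADHA and HADHB encode the α and β subunits of the mitochondrial trifunctional protein, lie head to head on opposite strands of chromosome 2 and share 1557 bases in the annotation. HADHA had 181 and 171 CPM in Huh7 2D and 157 and 144 in Inject-Embed, a log2 fold change of -0.23 ± 0.05 (adjusted p = 0.001157), lost without Huh7 Inject-Embed replicate 2 (-0.16, adjusted p = 0.0714). In HLF Inject-Embed it was 0.15 higher (adjusted p = 0.03364), a call lost on leaving out any 1 of the 4 compared libraries (0.14 to 0.17, adjusted p 0.0859 to 0.208), with no filter (adjusted p = 0.0519) and with DESeq2 (adjusted p = 0.0529). HADHB passed in no comparison within a line. Both subunits were lower in Huh7 than in HLF, HADHB by -0.61, -0.58 and -0.66 and HADHA by -0.23, -0.60 and -0.43 in 2D, Inject-Embed and Mix-Embed. The ratio of HADHA to HADHB in FPKM ran from 1.37 to 1.82 in Huh7 libraries and from 1.354 to 1.496 in HLF libraries.

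Auxiliary enzymes shift or reduce double bonds that the spiral cannot pass. ECI1, an enoyl-CoA isomerase of the mitochondrion, had 68.3 and 74.5 CPM in Huh7 2D, 95.3 and 93.7 in Inject-Embed and 91.0 and 105 in Mix-Embed. Both 3D groups lay above 2D, with changes of 0.40 ± 0.07 (adjusted p = 1.453e-05) and 0.45 ± 0.07 (adjusted p = 2.704e-06), and the HLF values of 0.06 and -0.08 did not pass. Huh7 over HLF was -0.25 in 2D, 0.09 in Inject-Embed (not passing) and 0.29 in Mix-Embed, the last lost without Huh7 Mix-Embed replicate 2 (0.18, adjusted p = 0.0534) or HLF Mix-Embed replicate 1 (0.17, adjusted p = 0.0646), and with library totals alone or limma (0.06, adjusted p 0.417 to 0.475). ECI2 and DECR1, the second isomerase and the dienoyl-CoA reductase, passed in no comparison within a line. DECR1 was higher in Huh7 by 1.35, 1.38 and 1.27 in the 3 cultures and ECI2 lower by -0.80, -0.58 and -0.58. DECR1 shares 1824 bases with NBN on the other strand.

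The electron transfer flavoprotein, made of ETFA and ETFB, hands electrons to the dehydrogenase ETFDH in the inner membrane. The balance of ETFA to ETFDH differed between the lines. ETFA was at 257 to 282 CPM in Huh7 and at 84.4 and 81.0 in HLF 2D, 71.3 and 67.8 in Inject-Embed and 66.3 and 61.2 in Mix-Embed. The HLF groups did not overlap. In HLF it fell by 0.38 ± 0.06 on the log2 scale in Mix-Embed (adjusted p = 4.256e-06) and was -0.25 ± 0.06 in Inject-Embed (adjusted p = 0.002444), the latter lost without HLF 2D replicate 1 (-0.22, adjusted p = 0.0534) or Inject-Embed replicate 2 (-0.21, adjusted p = 0.0779). ETFB was 0.39 ± 0.08 higher in Huh7 Mix-Embed (adjusted p = 0.0005463), lost without Huh7 2D replicate 1 (0.25, adjusted p = 0.0721). In Huh7 Inject-Embed it was 0.22 (adjusted p = 0.04731), lost without 2D replicate 1 (0.09, adjusted p = 0.617) or Inject-Embed replicate 1 (0.15, adjusted p = 0.359), and 0.37 without 2D replicate 2. It was also lost with no filter, DESeq2 or limma (adjusted p 0.0866 to 0.122). ETFDH passed in no comparison within a line and was lower in Huh7 than in HLF (-0.83, -0.93 and -0.75), while ETFA was higher (1.65, 1.96 and 2.01). The ratio of ETFA to ETFDH in FPKM was therefore 12.4 to 16.7 in Huh7 libraries and 2.00 to 2.60 in HLF libraries. For ETFA to ETFB the ratio was 4.18 to 6.20 in Huh7 libraries and 2.97 to 4.23 in HLF libraries, which overlap.

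The peroxisomal spiral was higher in Huh7 at each of its 4 genes in each culture. ACOX2 (ENSG00000168306, chr3:58505136-58537319), the oxidase of branched chains and bile acid precursors, had 22.7 and 20.9 CPM in Huh7 2D, 21.9 and 24.9 in Inject-Embed and 32.9 and 34.2 in Mix-Embed. Mix-Embed was above the other groups, which overlapped, with 0.62 ± 0.13 against 2D (adjusted p = 0.0003032). Inject-Embed against Mix-Embed was -0.52 (adjusted p = 0.002618), lost without Huh7 Inject-Embed replicate 1 (-0.43, adjusted p = 0.0739). Both were lost under limma on log2(FPKM + 0.1) (adjusted p = 0.112 and 0.199). In HLF the counts were 3 in the 2D libraries together, 16 in Inject-Embed and 20 in Mix-Embed, and both 3D groups were called higher than 2D (adjusted p = 0.02545 and 0.003868). As ratios of CPM these were 5.44 (95% counting interval 1.56 to 29.2) and 6.78 (2.01 to 35.6). The Inject-Embed call was lost without HLF 2D replicate 2 (1.42, adjusted p = 0.3), Inject-Embed replicate 1 (2.32, adjusted p = 0.0908) or Inject-Embed replicate 2 (2.37, adjusted p = 0.0844), and the Mix-Embed call without 2D replicate 2 (1.74, adjusted p = 0.102) or Mix-Embed replicate 1 (2.26, adjusted p = 0.0653). Those values are fitted log2 fold changes, which were 2.34 and 2.66 with all libraries and 5.93 and 6.24 without HLF 2D replicate 1, where all 3 of the 2D counts lay, so that these are no bound. Under limma on log2(FPKM + 1) neither HLF value passed (0.16, adjusted p = 0.286, and 0.20, adjusted p = 0.115). In the same HLF libraries the summed hepatocyte markers were 2.71 to 4.27 CPM in 2D, 8.37 to 9.72 in Inject-Embed and 15.4 to 16.6 in Mix-Embed. AFP carried much of this sum (0.56, 5.16 and 8.38 CPM by group mean), ALB, APOB and TF had group means below 0.1 CPM, and 2 of the 9 markers were called higher in Inject-Embed and 3 in Mix-Embed, with 0 lower. Their part in the ACOX2 counts was not tested. The ratio of Huh7 to HLF in 2D was 232 (79.1 to 1130).

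EHHADH and HSD17B4 encode the 2 bifunctional enzymes of the peroxisome. EHHADH, which takes straight chains, was at 74.5 to 85.5 CPM in Huh7 and 5.88 to 8.14 in HLF, passed in no comparison within a line, and was 11.3-fold, 11.3-fold and 11.9-fold higher in Huh7 in 2D, Inject-Embed and Mix-Embed. HSD17B4, which also takes branched chains, was at 299.8 to 329 CPM in Huh7 and 143 and 146 in HLF 2D, 123 and 136 in Inject-Embed and 122 and 116 in Mix-Embed. The HLF 2D libraries lay above the 3D libraries. It fell by 0.29 ± 0.05 on the log2 scale in HLF Mix-Embed (adjusted p = 3.765e-05) and was -0.16 in Inject-Embed (adjusted p = 0.02936), the latter lost without HLF 2D replicate 1 (-0.18, adjusted p = 0.0815), 2D replicate 2 (-0.14, adjusted p = 0.203) or Inject-Embed replicate 1 (-0.08, adjusted p = 0.526), and with library totals alone or limma (adjusted p 0.132 to 0.187). The ratio of HSD17B4 to EHHADH in FPKM was 1.67 to 1.92 in Huh7 libraries and 6.26 to 9.61 in HLF libraries.

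ACAA1 encodes the peroxisomal thiolase that closes this spiral. It had 46.5 and 50.7 CPM in Huh7 2D, 68.2 and 70.0 in Inject-Embed and 64.8 and 66.9 in Mix-Embed, and 23.6 to 28.9 CPM in HLF. The Huh7 3D libraries were all above 2D. It rose by 0.51 ± 0.08 (adjusted p = 5.119e-06) and 0.44 ± 0.08 (adjusted p = 8.712e-05), and the HLF values of 0.08 and 0.07 did not pass.

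Ketone body metabolism was represented by ACAT1 and BDH1. ACAT1, the mitochondrial acetoacetyl-CoA thiolase, had 49.4 and 49.1 CPM in Huh7 2D, 59.7 and 59.9 in Inject-Embed and 52.8 and 48.0 in Mix-Embed, and 96.4 and 103, 97.0 and 90.5, and 83.8 and 85.2 CPM in HLF. Huh7 Inject-Embed was above the other Huh7 groups and HLF Mix-Embed was below the other HLF groups. It rose by 0.28 ± 0.07 in Huh7 Inject-Embed against 2D (adjusted p = 0.002817). Inject-Embed against Mix-Embed was 0.25 (adjusted p = 0.01284), lost without Inject-Embed replicate 1 (0.25, adjusted p = 0.059), Inject-Embed replicate 2 (0.25, adjusted p = 0.0558) or Mix-Embed replicate 2 (0.19, adjusted p = 0.18). In HLF Mix-Embed it was -0.24 against 2D (adjusted p = 0.003724), lost without HLF 2D replicate 2 (-0.18, adjusted p = 0.124) or Mix-Embed replicate 1 (-0.21, adjusted p = 0.0518), and under limma on log2(FPKM + 0.1) (adjusted p = 0.0601). BDH1, which reduces acetoacetate to β-hydroxybutyrate, was low at 1.08 to 2.94 CPM and passed in no comparison.

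Whether the lines responded differently was tested in the same model, as the log2 change in Huh7 minus that in HLF. For Inject-Embed against 2D, 6 genes had a higher and 8 a lower value in Huh7 (24.8% of all genes tested were called, 11.7% higher and 13.1% lower). For Mix-Embed against 2D the counts were 10 and 4 (20.4% called, 10.2% higher and 10.2% lower), and for Inject-Embed against Mix-Embed 0 and 4 (10.6% called, 4.62% higher and 5.95% lower). The calls that held without any 1 library were 8 of 14, 7 of 14 and 2 of 4. With library totals alone, the share of positive differences among all genes called went from 49.9% to 37.1% for Mix-Embed against 2D, where the counts here were 7 and 5. For Inject-Embed against Mix-Embed it went from 43.7% to 61.2%, where they were 0 and 3. ACADVL had the smallest adjusted p in both comparisons with 2D, at differences of -0.71 ± 0.07 (adjusted p = 2.236e-10) and -0.61 ± 0.07 (adjusted p = 9.859e-09). CPT1A and CRAT had the smallest in Inject-Embed against Mix-Embed, at -0.97 ± 0.14 (adjusted p = 1.118e-06) and -0.72 ± 0.11 (adjusted p = 4.536e-06). CPT1A also differed in Mix-Embed against 2D, at 0.69 (adjusted p = 4.769e-05).

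Genes of the same pathways outside the 33 were counted against the same background, 29.9%, 21.7%, 17.9% and 29% of all genes called in Huh7 Inject-Embed, Huh7 Mix-Embed, HLF Inject-Embed and HLF Mix-Embed. Of 20 other genes of mitochondrial fatty acid oxidation, 2 were higher and 6 lower in Huh7 Inject-Embed than in 2D, 4 and 2 for Huh7 Mix-Embed, 4 and 0 for HLF Inject-Embed and 5 and 3 for HLF Mix-Embed. ACSL4, an acyl-CoA synthetase for arachidonic acid, was at 793 and 746 CPM in Huh7 2D, 501 and 535 in Inject-Embed and 646 and 629 in Mix-Embed, with log2 changes of -0.57 and -0.27. The shares called were 40%, 30%, 20% and 40%, and the median log2 fold changes of the 20 genes were 0.06, -0.02, 0.04 and 0.01 in the 4 comparisons, close to 0 as over all genes. Of 15 tested PPAR partners and targets of 18 listed, 4 were higher and 3 lower, 6 and 0, 4 and 1, and 4 and 1 in the same order, with shares called of 46.7%, 40%, 33.3% and 33.3% and medians of 0.17, 0.29, 0.07 and 0.19. PLIN2, which coats lipid droplets, had 223 and 219.8 CPM in Huh7 2D, 136 and 131 in Inject-Embed and 246 and 257 in Mix-Embed, and rose in HLF by 0.60 and 0.70. PDK4, a kinase that turns glucose oxidation down, rose in HLF by 1.22 and 1.60 from 1.49 and 1.83 CPM in 2D and was called in neither Huh7 culture.

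Of 8 other ketone body genes, 1 rose and 2 fell in Huh7 Inject-Embed, 2 rose and 2 fell in its Mix-Embed, and 2 rose and 1 fell in each HLF culture. The shares called were 37.5% and 50% in Huh7 and 37.5% in each HLF culture, and the medians of the 8 genes were 0.01 and 0.09 in Huh7 and 0.13 and 0.16 in HLF. Of 21 peroxisome assembly and transport genes, 4 rose and 2 fell in Huh7 Inject-Embed, 4 and 1 did in its Mix-Embed, 1 and 0 in HLF Inject-Embed and 1 and 1 in HLF Mix-Embed (medians 0.15, 0.08, 0.10 and 0.04). The shares called, 28.6%, 23.8%, 4.76% and 9.52%, were near the background in Huh7 and below it in HLF. PEX6, a recycling ATPase of peroxisomal import, was the gene higher in both HLF cultures, by 0.82 and 1.09. Of 19 tested other peroxisomal enzymes of 21 listed, 3 were higher and 5 lower, 5 and 3, 2 and 1, and 2 and 4 (shares called 42.1%, 42.1%, 15.8% and 31.6%, medians 0.06, 0.11, 0.01 and 0.00). Catalase, CAT, which breaks down the hydrogen peroxide that peroxisomal oxidases release, rose in all 4 comparisons, by 0.70 and 0.53 in Huh7 and 0.31 and 0.24 in HLF. Genes named from these other lists were not checked with single libraries left out or under other settings.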

How the data were processed

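Poly-A RNA was measured in 12 libraries (6 groups of 2). Raw counts per gene, with gene lengths, and FPKM values made from them by the authors were deposited as 2 tables. FastQC, Trimmomatic, STAR 2.7.9a and featureCounts with GRCh38 are named in the submitters' processing notes; for settings, strandedness and annotation release, the answer is: not given in the sources used here. Deposited FPKM equalled count per length and library total within a relative 1.5e-08 for values of at least 20 counts. Columns named Emb were taken to be Mix-Embed.

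Counts were tested with edgeR 4.0.16 in R 4.3.3 (TMM; filterByExpr, minimum count 10; 19342 genes; 6 group means; quasi-likelihood tests; Benjamini-Hochberg over all genes, 0.05). The common dispersion was 0.00211, a variation of 4.59% between replicates, and the script was tested on simulated data. SE is the log2 fold change over the root of F. Folds by mean CPM are unmoderated. Per-library values are given for genes called within a line at an absolute log2 difference of 0.58 or more, genes with few counts, and some others; of each other list, up to 4 genes of smallest adjusted p against 2D could be named, besides PDK4; some items are not reported here. The genes and lists were chosen with earlier results of these data known. Alternatives were RLE scaling, library totals alone, no filter, DESeq2 1.42.0, limma 3.58.1 on log2(FPKM + 1) and log2(FPKM + 0.1), a replicate block, only the compared groups, and leaving out each library.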

Additional observations from a re-analysis of the deposited data

Results flagged for a closer look

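The change in a 3D culture, or between the 3D cultures, differed between the lines at 32 gene and comparison pairs (edgeR test of the difference). Differences are given as the log2 change in Huh7 minus that in HLF. Of the 32 genes tested, 43.8% were called for Inject-Embed against 2D, 43.8% for Mix-Embed against 2D and 12.5% for Inject-Embed against Mix-Embed. Of all genes tested, 24.8%, 20.4% and 10.6% were called in the same order. The Inject-Embed against Mix-Embed difference follows from the differences against 2D, so the pairs are not separate findings. For Inject-Embed against 2D, the difference was positive for ACAA1 (0.42), ACAT1 (0.37), ECI1 (0.34), ETFA (0.31), HSD17B4 (0.28) and ECHS1 (0.26). It was negative for ACOX2 (-2.24), PPARGC1A (-1.46), ACSL1 (-1.29), ACADVL (-0.71), ACSL5 (-0.64), ACAD10 (-0.54), CRAT (-0.40) and HADHA (-0.38). The ACSL1 difference was -0.68 with adjusted p = 0.226 without HLF Inject-Embed replicate 1, where ACSL1 had 2.92 CPM against 1.44 in replicate 2. The ACOX2 difference rests on 3 counts in HLF 2D and was -1.28 with adjusted p = 0.306 without HLF 2D replicate 2, -2.19 with 0.0862 without HLF Inject-Embed replicate 1 and -2.24 with 0.0767 without HLF Inject-Embed replicate 2, and it was -5.82 without HLF 2D replicate 1, which leaves no count in HLF 2D and is no bound. ACSL5 was lost without any 1 of 5 libraries (-0.62 to -0.43, adjusted p 0.0839 to 0.307): Huh7 2D replicate 1, HLF 2D replicate 2, Huh7 Inject-Embed replicate 2 and both HLF Inject-Embed replicates. ACAA1 was lost without Huh7 2D replicate 1, HLF 2D replicate 2 or HLF Inject-Embed replicate 1 (0.34 to 0.37, adjusted p 0.0523 to 0.0881), CRAT without HLF Inject-Embed replicate 2 (-0.33, adjusted p = 0.0588) and ECHS1 without Huh7 2D replicate 1 (0.21, adjusted p = 0.0523). Under limma with 1 or both pseudocounts PPARGC1A, ACSL5, ECI1, ACOX2 and ACAA1 were also lost (adjusted p 0.051 to 0.849), as were ACSL5 (adjusted p = 0.0607) and ACOX2 (adjusted p = 0.0552) with no filter and ACSL5 with DESeq2 (adjusted p = 0.0537).

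For Mix-Embed against 2D, the difference was positive for CPT1A (0.69), ECI1 (0.54), ETFB (0.48), HSD17B4 (0.40), ACAA2 (0.39), ECHS1 (0.38), ACAA1 (0.37), ETFA (0.36), CRAT (0.32) and ACAT1 (0.27), and negative for ACSL5 (-0.93), ACADVL (-0.61), ACAD10 (-0.36) and HADHA (-0.21). Of these, ACAA1, ACAT1 and HADHA were each lost without any 1 of 6 libraries, with adjusted p of 0.057 to 0.291, 0.0735 to 0.256 and 0.0565 to 0.242 (ACAA1 held without Huh7 2D replicate 2 and HLF 2D replicate 1, ACAT1 without HLF 2D replicate 1 and Huh7 Mix-Embed replicate 2, HADHA without Huh7 2D replicate 2 and Huh7 Mix-Embed replicate 1). CRAT was lost without Huh7 2D replicate 1, HLF 2D replicate 2, Huh7 Mix-Embed replicate 2 or HLF Mix-Embed replicate 1 (0.25 to 0.30, adjusted p 0.0758 to 0.182). ACAD10 was lost without HLF 2D replicate 2 or replicate 1 of either Mix-Embed group (-0.36 to -0.31, adjusted p 0.0665 to 0.113). ACAA2 was lost without replicate 1 of either Mix-Embed group (0.31 to 0.32, adjusted p 0.069 to 0.0695), and ETFB without replicate 1 of either 2D group (0.34 to 0.35, adjusted p 0.0671 to 0.112). Other settings also lost ACSL5, CRAT, HADHA, ACAA2, ETFB, ACAA1 and ACAT1 (adjusted p 0.0524 to 0.165).

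For Inject-Embed against Mix-Embed, it was negative for PPARGC1A (-1.33), CPT1A (-0.97), CRAT (-0.72) and ETFB (-0.42). PPARGC1A was lost without Huh7 Mix-Embed replicate 1 (-0.77, adjusted p = 0.31), Huh7 Inject-Embed replicate 2 (-1.01, adjusted p = 0.125) or HLF Inject-Embed replicate 2 (-1.18, adjusted p = 0.0598). ETFB held without Huh7 Inject-Embed replicate 1 and Huh7 Mix-Embed replicate 1 and was lost without any 1 of the other 6 libraries (-0.41 to -0.33, adjusted p 0.0829 to 0.204). Both PPARGC1A and ETFB were lost under limma with either pseudocount (adjusted p 0.189 to 0.341), and ETFB with DESeq2 (adjusted p = 0.0743) and library totals alone (adjusted p = 0.0731).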

How the results depend on the processing

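No called gene among the 32 changed direction under an alternative. The balance of all genes called did: with library totals alone, Huh7 Inject-Embed against 2D went from 2552 higher and 3225 lower to 2952 and 2872, Huh7 Inject-Embed against Mix-Embed from 1848 and 2587 to 2393 and 2132, and the line difference between the 3D cultures from 893 and 1151 to 1381 and 876, and with RLE scaling Huh7 Mix-Embed against 2D went from 2157 and 2046 to 1989 and 2196. The gene values counted next include genes without a call, which kept their status when they stayed uncalled. With 1 library left out, 992 of 1140 gene values kept their status, 139 lost a call and 9 gained one. Under the other settings 1671 of 1824 kept it, 130 lost a call and 23 gained one. The losses are thus counted over more values than there were calls. Where calls were lost, the cause was not tested. Under limma on log2(FPKM + 0.1), Huh7 Mix-Embed against 2D gave 8 higher (from 13) and 0 lower (from 2), HLF Mix-Embed against 2D 3 lower (from 5), and the line difference in the Mix-Embed change 6 higher (from 10). Under that setting and limma on log2(FPKM + 1), HLF Inject-Embed against 2D and against Mix-Embed each gave 1 lower (from 3), and the second setting gave 1 higher (from 0) for the line difference between the 3D cultures. DESeq2 gave 1 lower (from 2) in Huh7 Mix-Embed against 2D, no filter gave 1 higher (from 3) in Huh7 Inject-Embed against Mix-Embed, and library totals alone gave 1 lower (from 3) in HLF Inject-Embed against 2D. With library totals alone, the all-gene median between the lines was -0.18, -0.20 and -0.25 in 2D, Inject-Embed and Mix-Embed. With TMM it was -0.024, -0.0345 and -0.025.

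With 1 library left out, counts higher and lower ran from 6 to 10 and 6 to 8 in Huh7 Inject-Embed against 2D, 10 to 13 and 2 to 3 in Huh7 Mix-Embed against 2D, 0 to 2 and 6 to 8 in Huh7 Inject-Embed against Mix-Embed, 3 to 4 and 0 to 1 in HLF Inject-Embed against 2D, 4 to 5 and 3 to 4 in HLF Mix-Embed against 2D, and 0 and 1 to 2 in HLF Inject-Embed against Mix-Embed. Between the lines they ran from 16 to 17 and 9 to 10 in 2D, 16 to 18 and 9 to 10 in Inject-Embed, and 18 to 20 and 8 to 10 in Mix-Embed. For the line differences they ran from 4 to 6 and 5 to 8, 6 to 9 and 2 to 5, and 0 and 2 to 4. A group left with 1 library is assumed to vary like the others.

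Same-numbered libraries did not deviate together (correlations of -0.051 to 0.053 over 15 group pairs), and the main model did not pair them. Whether same-numbered libraries were grown or processed together is not said in the labels. With a replicate block 228 gene values, uncalled genes included, kept their status. No call was lost, and ACAD11 was gained between the lines in Inject-Embed (1.497, adjusted p = 0.0439), giving 18 genes higher in Huh7 there against 17. Counts limit ACAD11, BDH1, PPARGC1A and, in HLF, ACOX2, SLC27A2 and FABP1, where differences below the floor of 3 counts were not detectable at this depth.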

Other observations

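Further genes from the other pathway lists changed between 2D and 3D culture. They too were not checked with single libraries left out or under other settings. In Huh7 Inject-Embed, ACAT2, the cytosolic thiolase of sterol synthesis (-0.51), OXCT1, which activates ketone bodies for use (-0.62), PHYH, which starts the breakdown of phytanic acid (-0.67), and AGXT, which detoxifies glyoxylate (-0.82), were lower than in 2D by these log2 fold changes. PECR, a peroxisomal enoyl-CoA reductase, was higher in Huh7 Inject-Embed (0.74) and Mix-Embed (0.60), as was UCP2, an inner membrane carrier (0.70 and 0.61). ACSM3, a medium-chain acyl-CoA synthetase, was lower in Huh7 (-0.68 and -0.30) and higher in HLF (0.93 and 0.86). The ACSM3 changes differed between the lines by -1.61 (edgeR adjusted p = 1.524e-10) and -1.15 (adjusted p = 4.041e-07).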
